A study of Mus musculus with 2 samples.

Results

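Molecular chaperones of the Hsp40, Hsp90 and small heat shock protein families, with Hsp110, the Bag proteins, the Hsp90 co-chaperones Stip1, Ahsa1 and Cdc37 and the transcription factors Hsf1 and Hsf2, were followed gene by gene and isoform by isoform in the mouse adrenal gland. They are the annotated genes named Dnaja, Dnajb or Dnajc with a number, those whose names begin with Hsp90, Hspb with a number, Bag1 to Bag6, Hsph1, Trap1, Stip1, Ahsa1, Cdc37, Hsf1 and Hsf2. The annotation holds 67 such genes, and 64 of them had reads, among 17707 genes with reads in all. The study sequenced adrenal RNA from female B6CASTF1/J mice, an F1 hybrid strain, aged 18 to 20 months, as single long cDNA reads. It has 1 group of 2 libraries, labelled biological replicates 1 and 2, each from 1 µg of total RNA with ERCC and SIRV spike-in RNAs added. The labels give the libraries separate biosamples but 1 donor entry, and whether 2 animals were used cannot be told from them, so differences between the libraries may be technical. No treatment or second group is described, and the comparisons below are between the 2 libraries.

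Replicate 1 held 1412947 reads on annotated mouse genes and replicate 2 held 933963. A count of 0 allows up to 3 reads, which is 2.12 and 3.21 CPM in replicates 1 and 2. CPM here is the number of reads of a gene among 1000000 gene reads. Because a long read comes from 1 transcript, whole or in part, CPM counts reads and is not divided by length. The libraries differed in tissue content. A list of 20 skeletal muscle genes took 0.0908% of gene reads in replicate 1 (1283 reads) and 0.00107% in replicate 2 (10 reads), and 8 genes of fat cells took 0.862% and 0.592%. A list of 9 genes of the adrenal cortex took 7.53% and 7.48%, although 4 of them, led by Mrap (2.13-fold), were higher in replicate 2 and 3, led by Cyp11b1 (1.54-fold), in replicate 1. Another 10 genes of the chromaffin cells of the medulla took 1.21% and 0.949%. In brown fat, 7 genes took 0.349% and 0.202%, with Ucp1 and Elovl3 higher in replicate 1 and 5 not called. In smooth muscle, 8 genes took 0.0259% and 0.0167%, with 3 higher in replicate 1. Endothelial genes (5) took 0.0287% and 0.0344% and macrophage genes (7) 0.0355% and 0.0441%, with 1 and 2 higher in replicate 2. In bulk tissue, fewer cells of a type and less RNA per cell cannot be told apart.

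Chaperones bind proteins that are not yet folded or have lost their fold. Hsp40 proteins carry a J domain that brings clients to Hsp70 and starts its ATP hydrolysis, while Hsp110 and Bag proteins help Hsp70 to release its nucleotide. Hsp90 works later, with co-chaperones, on signalling proteins such as steroid receptors and kinases. Small heat shock proteins hold unfolded proteins without using ATP. Hsf1 is the main activator of the heat shock genes, and the adrenal gland, a maker of steroids and catecholamines, uses these chaperones in the cytosol, the endoplasmic reticulum (ER) and mitochondria.

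The members together took 15039 reads in replicate 1 and 12009 in replicate 2, a share of gene reads of 1.18 ± 0.157% (SD, n = 2). Hsp90ab1 alone held 31.0% and 34.5% of those reads. The median level over the 64 genes was 51.5 ± 0.192 CPM (SD, n = 2). Dnajb13 (2 reads) and Hspb7 (1 read) were seen in replicate 1 only, and Hspb9 (1 read) in replicate 2 only. Dnajb7, Dnajb8 and Hspb3 had no read in either library. In all, 55 members had at least 10 reads over both libraries and entered the comparison of libraries, 20 of them with fewer than 100 reads, and 9 members had 1 to 9 reads.

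**Figure D1:**
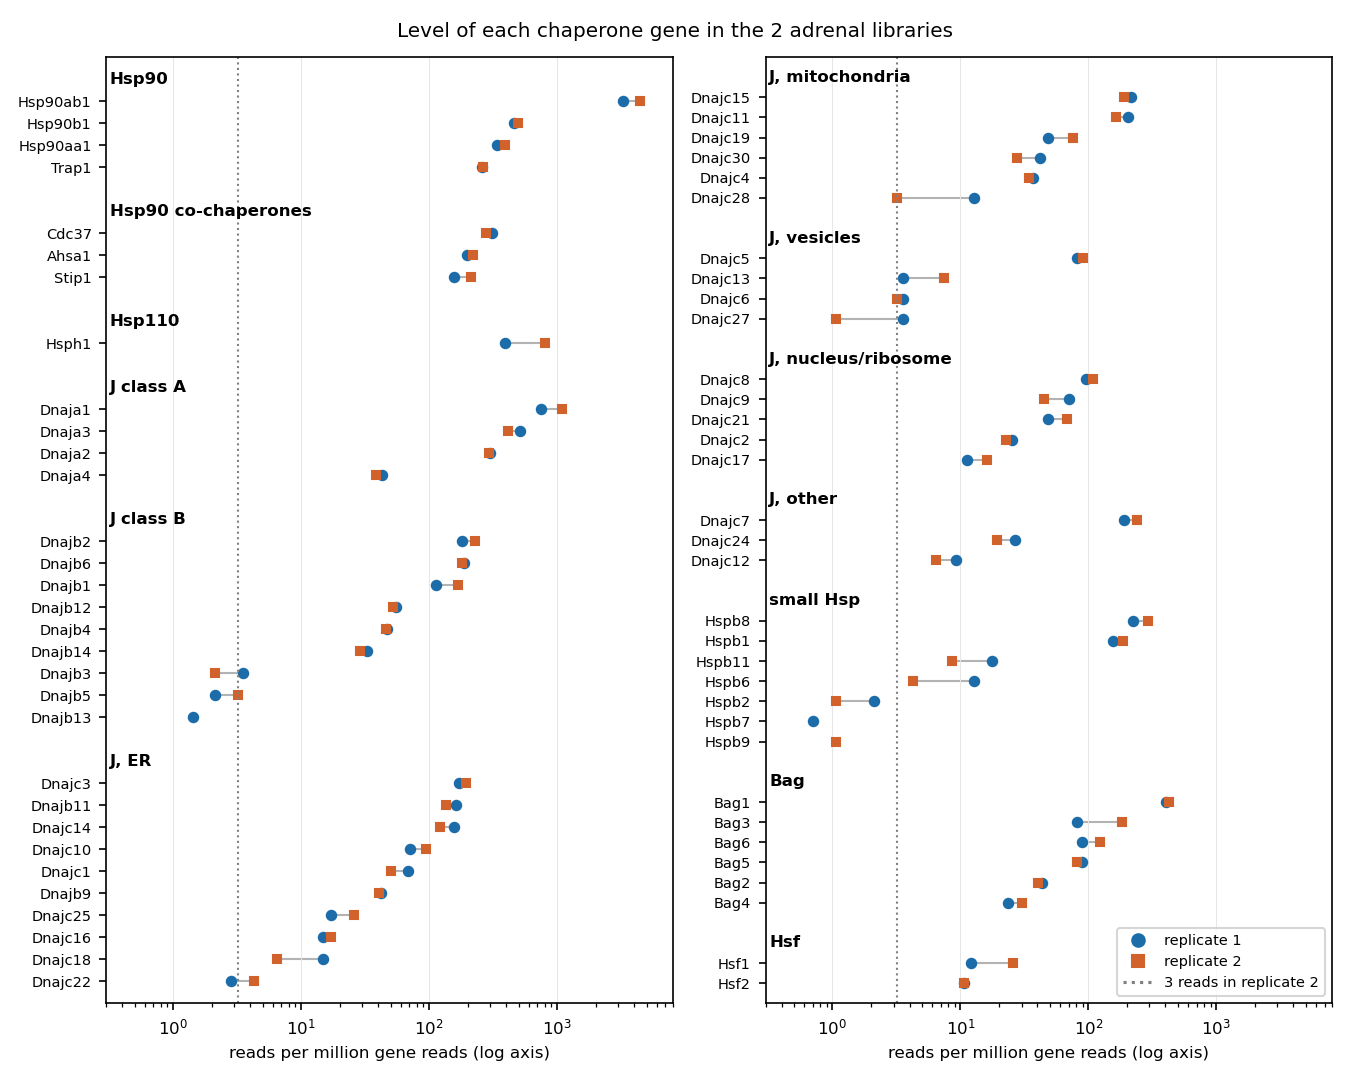
Level of the 64 members with reads, in CPM on a log axis, in replicate 1 (circles) and replicate 2 (squares), grouped by role. The dotted line marks 3 reads in replicate 2 (3.21 CPM), and Hsp90ab1, at 3297 and 4440.2 CPM, lies to the right of all other members.

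The 4 Hsp90 genes spanned a wide range of levels. Hsp90ab1, the constitutive cytosolic Hsp90 (chr17:45567775-45573271, minus strand), had 4659 reads in replicate 1 and 4147 in replicate 2, or 3297 and 4440.2 CPM, with a mean of 3869 ± 808 CPM (SD, n = 2). It ranked 10 among all genes by mean CPM. Hsp90b1, the Hsp90 of the ER, had 464 and 490.4 CPM from 656 and 458 reads. Hsp90aa1, the stress-inducible cytosolic form, had 338 and 391 CPM from 478 and 365 reads. Trap1, the mitochondrial Hsp90, had 260.4 and 262 CPM from 368 and 245 reads. Hsp90ab1 was above the other Hsp90 genes in both libraries. Over all reads, partial ones included, the ranges of Hsp90aa1, Hsp90b1 and Trap1 did not overlap and kept the same order. On the main isoform alone Hsp90aa1 was below Trap1, with 160 and 110 reads of Hsp90aa1-202 against 335 and 220 of Trap1-201. Hsp90b1-201 had 359 and 238.

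Reads of Hsp90ab1, Hsp90aa1 and Hsp90b1 often stopped inside the coding sequence, and Trap1 reads did not. In Hsp90ab1, 1382 and 1687 reads, 29.7% and 40.7% of the gene's reads, had their 3′ end at position 875 of the 2520 nt of Hsp90ab1-201, in exon 6 of 11, at codon 257. In Hsp90aa1, 156 and 136 reads (32.6% and 37.3%) ended at position 976 of the 3281 nt of Hsp90aa1-202, in exon 5 of 11, at codon 278, and another 78 and 62 reads ended at position 1797, in exon 9. In Hsp90b1, 177 and 104 reads (27.0% and 22.7%) ended at position 1129 of 2825 nt, at the end of exon 7 of 18, at codon 325. The first of these sites in each gene lies in or beside the stretch that codes for the charged linker between the N-terminal and middle domains of Hsp90. The ends of Hsp90ab1 and Hsp90aa1 coincide with ends of annotated retained-intron transcripts (Hsp90ab1-204, Hsp90aa1-206 and Hsp90aa1-204), to which the deposited ends may have been set, so the exact base is uncertain. No annotated transcript ends at the Hsp90b1 site.

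Sequences at the ends of Hsp90aa1 and Hsp90b1, and at 1 in Dnajc25, are shown because they are alike in base composition. Each line gives the RNA-sense strand, read from the annotated isoform in GENCODE M21 on mm10, with the most A-rich run of 20 bases within 50 bases of the end in capitals. The last base of the reads is base 51 of each line.
Hsp90aa1, chr12:110694125-110694225, minus strand: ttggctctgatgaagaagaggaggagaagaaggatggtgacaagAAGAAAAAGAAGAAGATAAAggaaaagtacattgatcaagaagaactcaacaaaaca
Hsp90aa1, chr12:110692659-110692759, minus strand: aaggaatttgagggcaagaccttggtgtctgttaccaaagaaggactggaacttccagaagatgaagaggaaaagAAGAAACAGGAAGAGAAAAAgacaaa
Hsp90b1, chr10:86698319-86698369, minus strand: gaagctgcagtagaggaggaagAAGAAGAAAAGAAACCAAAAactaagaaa
Dnajc25, chr4:59020122-59020222, plus strand: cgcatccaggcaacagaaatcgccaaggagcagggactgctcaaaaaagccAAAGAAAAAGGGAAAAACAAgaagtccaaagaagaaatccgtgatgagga
The capitals hold 15 and 14 A among 20 bases in Hsp90aa1, 15 in Hsp90b1 and 15 in Dnajc25, an ER-associated J protein whose reads ended there in 10 and 10 cases (41.7% and 41.7%). The Dnajc25 end coincides with the end of annotated Dnajc25-202, so its exact base is uncertain too. Runs with at least as many A made up 0.307% and 1.07% of the 3262 windows of Hsp90aa1-202, 0.0713% of those of Hsp90b1-201 and 0.0250% of those of Dnajc25-201. The median window held 5 or 6 A. Each count near an end is the highest of many windows there, whereas the shares given here are of single windows. They therefore do not say how often such a run lies near any other position. Of the further internal ends with at least 20 reads over both libraries, 5, in Hsp90ab1 (exons 7 and 9), Dnajc3, Dnaja1 and Dnajc21, had at most 11 A within the same distance. The end of Hsp90ab1 in exon 9 had at most 7 A, a number reached by 30.4% of windows, and that of Dnajc3 in exon 11 of 12 had at most 11. The part of the A-rich runs in these ends was not tested.

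**Figure D2:**
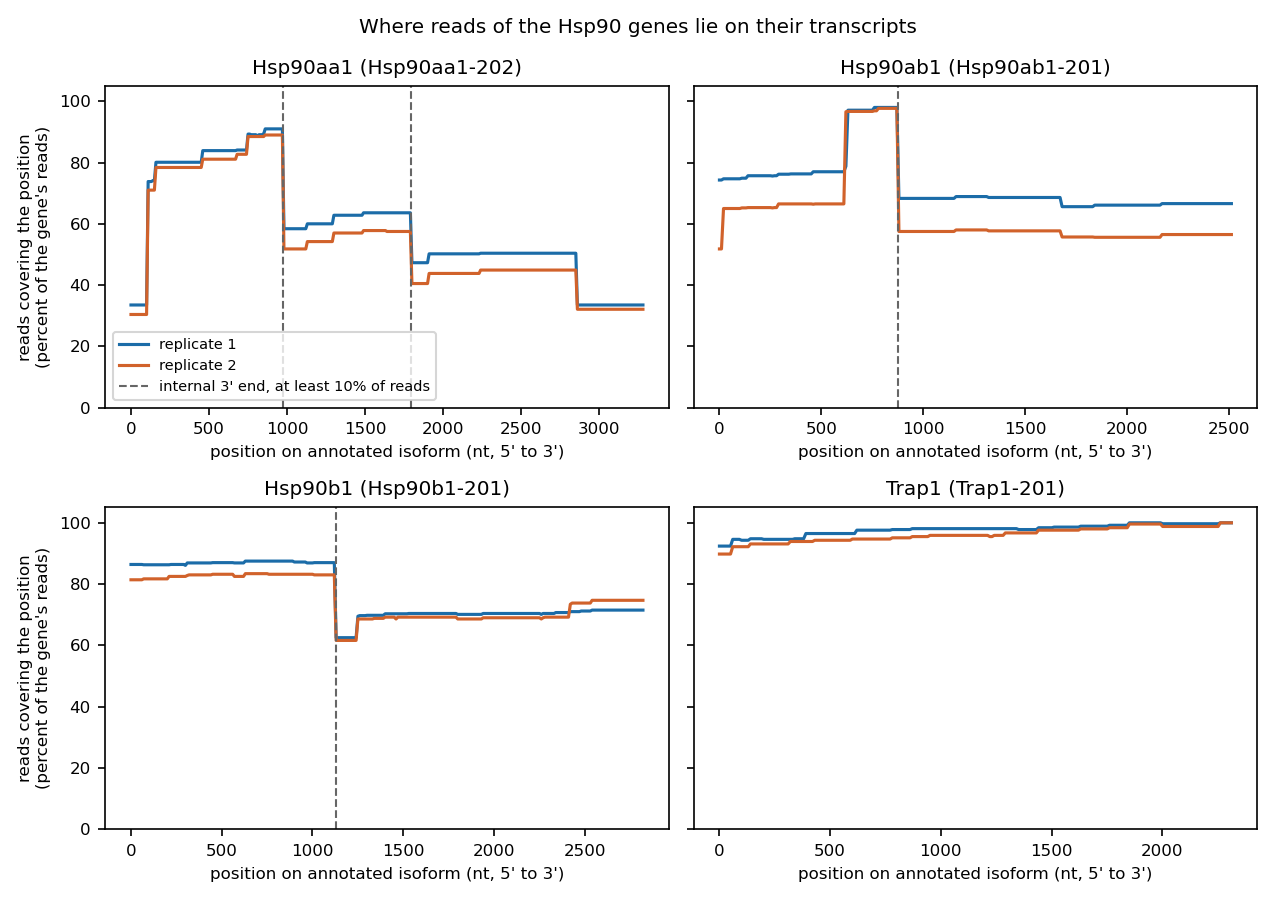
Share of each Hsp90 gene's reads whose model covers each position of the annotated isoform, in nt from 5′ to 3′, in replicate 1 (blue) and replicate 2 (orange). Dashed lines mark internal 3′ ends that hold at least 10% of the gene's reads in both libraries: the share drops there in Hsp90ab1, Hsp90aa1 and Hsp90b1, and stays at or above 89.8% along Trap1.

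The short Hsp90ab1 reads were of 2 kinds. A 6-exon model from the annotated start region to position 875 had 529 and 490 reads (11.4% and 11.8% of the gene). A 2-exon model of exons 5 and 6 alone, 251 nt in replicate 1 and 256 nt in replicate 2, had 825 and 1169 reads (17.7% and 28.2%). The larger share of the gap between the libraries lay in this 2-exon model, and the 6-exon model had nearly equal shares. The full-length Hsp90ab1-201 took 59.1% (95% exact interval 57.6 to 60.5) and 49.3% of reads. In replicate 2 the interval was 47.7 to 50.8. Fisher's exact test separated the 2 shares (two-sided, Benjamini-Hochberg adjusted p = 3.1e-17), and Hsp90ab1 was the only 1 of 44 members past that test. Over all genes 142 of 6413 passed, or 2.21%. With partial and genomic models left out, 0 of 41 members passed, against 0.824% of genes. A chi-square test over all isoforms called 3 members, Hsp90ab1, Hsp90b1 and Dnaja1, against 2.51% of genes, and a minimum of 50 reads in each library left Hsp90ab1 alone, against 4.75%.

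Reads lacking the last exon of the main annotated isoform were counted for 43 members with at least 20 reads in each library and more than 1 exon. In 9 of them, 20.9%, more than 10% of reads in both libraries lacked it, against 607 of 6046 genes, or 10%. These were Hsp90aa1 (49.6% and 55.1%), Hsp90ab1 (33.4% and 43.5%), Hsp90b1 (28.5% and 25.3%) and the J proteins Dnajc25, Dnajc2, Dnajc4, Dnajc21, Dnajc3 and Dnajc1. Dnajc4 did not hold: with only models that overlap an exon of the main isoform, an alternative chosen after seeing the data, it had 5.13% and 4%. That left 8 of 43 members (18.6%), against 7.80% of 5971 genes. The median member was close to the median gene, at 0.909% and 0.877% against 0.716% and 1.23%. Trap1 had 0 of 368 and 0 of 245 such reads, which allows up to 0.997% and 1.49% by the exact interval.

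**Figure D3:**
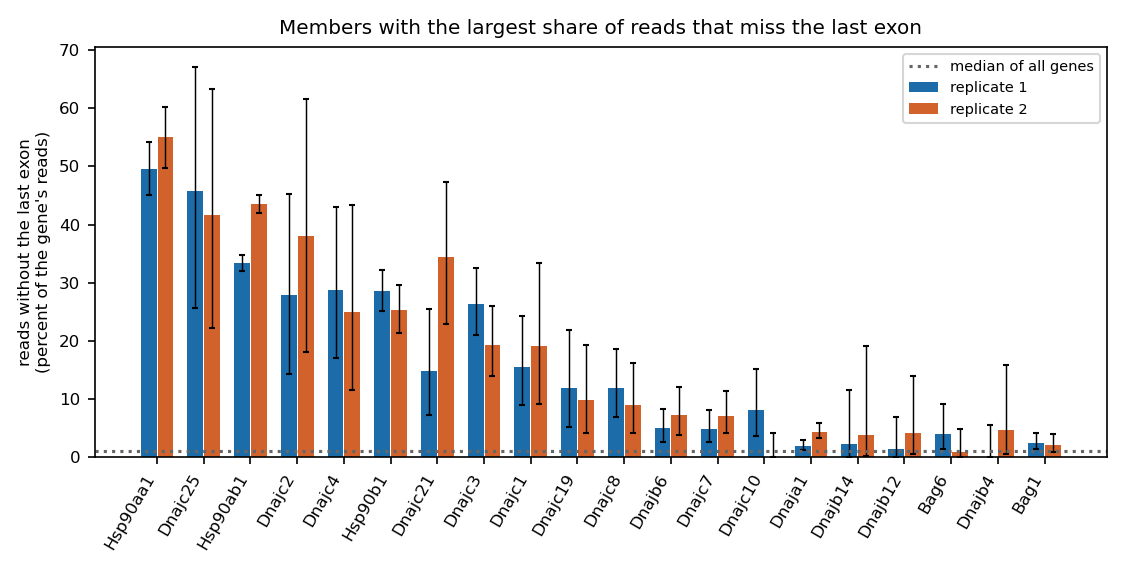
Percent of reads without the last exon for the 20 members with the largest mean share, in replicate 1 (blue) and replicate 2 (orange), with exact 95% intervals that cover counting error only. Hsp90aa1, at 49.6% and 55.1%, is highest, and the dotted line is the median of all genes.

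The deposited tables class each model as annotated, incomplete splice match (a partial copy of a transcript's exon chain), new combination of known splice sites, new splice site, or genomic. Annotated models took 74.4% and 67.8% of member reads, against 77.2% and 73.2% over all genes. Partial models took 20.9% and 27.4%, against 12.2% and 13.0%. Of the members' partial reads, 65.8% and 66.7% were classed as prefixes, models that match the first exons of some annotated transcript, against 12.6% and 14.9% over all genes. The Hsp90 genes held 91.2% and 92.1% of these prefix reads, and 825 of 2072 and 1169 of 2195 were the Hsp90ab1 model of exons 5 and 6, which lacks the 5′ part of Hsp90ab1-201. Without the Hsp90 genes, partial models took 7.88% and 11.4% of member reads, and prefixes 26.1% and 22.4% of those.

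Of the members that differed between the libraries, Hsph1, Bag3, Dnaja1, Dnajb1, Hsp90ab1, Stip1 and Hspb8 were higher in replicate 2 and Dnaja3 in replicate 1. After TMM scaling, which sets the bulk of genes equal between libraries, an exact binomial test called 7 of the 55 tested members higher in replicate 2 (12.7%) and 1 higher in replicate 1 (1.82%). Over all 11068 genes tested, 5.74% were higher in replicate 2, 5.88% in replicate 1 and 11.6% in either. Calls depend on depth, so members with at least 100 reads were also set against such genes: 20.0% and 2.86% of 35 members, against 10.3% and 11.9% of 4377 genes. In either direction 22.9% of these members and 22.2% of these genes were called. No test of this split was made, because the members were chosen with results known. The p-values compare 2 libraries and cover counting error alone. edgeR's exact test took its spread (a biological coefficient of variation of 21.5%) from the same 2 libraries it compared, so the difference tested is part of that spread and few calls can be made. It called 0 members, 3 of them with an unadjusted p under 0.05, and 27 genes in all, or 0.244%.

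Among the members called, Hsph1 and Bag3, which both act on the nucleotide cycle of Hsp70, had the largest ratios. Hsph1, the Hsp110 of the cytosol (chr5:149614287-149636376, minus strand), had 548 reads (388 CPM) in replicate 1 and 749 reads (802 CPM) in replicate 2. It was 2.02-fold higher in replicate 2 (95% interval 1.81 to 2.26, exact binomial test, adjusted p = 6.6e-34). Bag3, which links Hsp70 to the small heat shock protein Hspb8 and to autophagy (chr7:128523616-128546981, plus strand), had 114 reads (80.7 CPM) and 171 reads (183 CPM). It was 2.22-fold higher in replicate 2 (1.74 to 2.84, exact binomial test, adjusted p = 2.3e-09). Both genes had more reads in replicate 2 although that library is the smaller.

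For Bag3 the call rested on partial models. The annotated 4-exon Bag3-201 took 17 and 14 reads, 14.9% and 8.19% of the gene. A 2-exon model of exons 3 and 4 took 67.5% and 65.5%. Unannotated single-exon models, pooled and nearly all of the last exon, took 15.8% and 24.0%. With annotated transcripts only, the log2 ratio of Bag3 was 0.40 and the exact binomial adjusted p was 0.87. With reads that overlap the last exon it was 1.14, and the call stood.

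The other members higher in replicate 2 differed by less than 1.5-fold. Dnaja1, the most abundant J protein gene, had 1047 and 1015 reads (741 and 1087 CPM) and was 1.43-fold higher (1.31 to 1.56, exact binomial test, adjusted p = 4.6e-14). Dnajb1, the stress-inducible class B J protein, had 161 and 157 reads (114 and 168 CPM) and was 1.44-fold higher (1.15 to 1.81, adjusted p = 0.016 in the same exact test). Hsp90ab1 was 1.32-fold higher (1.26 to 1.37, exact test, adjusted p = 3.8e-35). Dnaja1 was 1 of 4 tested class A genes and Dnajb1 1 of 6 tested class B genes called in this direction.

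The Hsp90ab1 ratio depended on the short reads. Without the 2-exon model its log2 ratio fell from 0.40 to 0.20, and with reads that overlap the last exon it was 0.16, with exact binomial adjusted p-values of 7.5e-07 and 0.0012. Both alternatives were chosen after seeing the data. With annotated transcripts only it was 0.24.

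Stip1, the adaptor that passes clients from Hsp70 to Hsp90, had 220 and 197 reads (156 and 211 CPM) and was 1.32-fold higher in replicate 2 (1.09 to 1.61, exact binomial test, adjusted p = 0.044). Hspb8, the small heat shock protein that binds Bag3, had 316 and 273 reads (224 and 292 CPM) and was 1.28-fold higher (1.08 to 1.51, exact test, adjusted p = 0.034). Both lay close to the threshold, and with no read minimum their adjusted p-values in the exact test were 0.071 and 0.054. Stip1 also lost its call with annotated transcripts only (log2 0.35, exact test, adjusted p = 0.19). Dnaja3, the mitochondrial class A J protein, was the 1 member higher in replicate 1, with 728 and 383 reads (515 and 410.1 CPM) and a 1.28-fold difference (1.13 to 1.46, exact test, adjusted p = 0.0014).

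These calls depended on the scaling. With ERCC spike-in totals in place of TMM, the median log2 ratio of all genes moved from 0.00 to -0.32, as did that of the members. Then 3 members (Bag3, Dnaja1 and Hsph1) were higher in replicate 2 and 15 in replicate 1, among 21.3% of genes called. Of all calls, 10.3% were higher in replicate 2 under ERCC scaling and 49.4% under TMM. Hsp90ab1, Stip1, Hspb8 and Dnajb1 lost their calls there, with log2 ratios of 0.07, 0.08, 0.03 and 0.20, and Dnaja3 kept its direction. Library content that differed between the replicates was not tested for its part in these ratios. It included shares of muscle, fat and chromaffin genes higher in replicate 1, and cortex genes called in both directions.

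**Figure D4:**
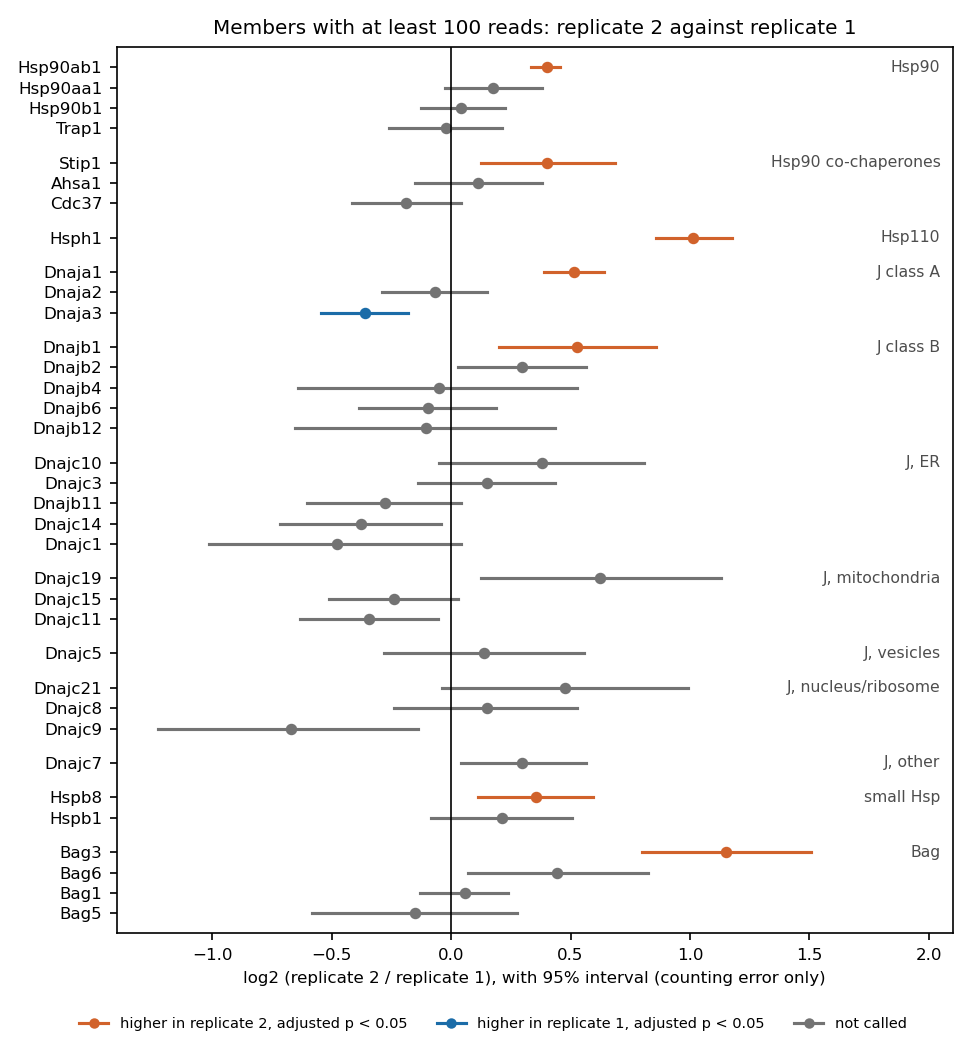
Log2 ratio of replicate 2 over replicate 1 after TMM scaling, with exact 95% intervals for counting error, for the 35 members with at least 100 reads, grouped by role. Orange marks the 7 members called higher in replicate 2, led by Bag3 and Hsph1, blue marks Dnaja3, and grey the 27 members not called.

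The promoter of Bag3, which had the largest ratio among the members called, is shown at its match to the heat shock element. Hsf1 is known to bind sites of this kind. That of Hsph1 was added after its values were seen, and that of Dnaja3 is not shown. RefSeq promoters (GRCm38.p6, 250 bases before to 50 after the start) were matched for 55 of the 67 members. The element was searched on both strands as units GAANNTTC or TTCNNGAA, and in its 3-unit forms GAANNTTCNNGAA and TTCNNGAANNTTC, which contain the shorter ones. Capitals mark the element.
Hsph1, 3 units, chr5:149636280-149636308, minus strand: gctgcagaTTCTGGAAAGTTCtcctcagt
Hsph1, 2 units, chr5:149636337-149636394, minus strand: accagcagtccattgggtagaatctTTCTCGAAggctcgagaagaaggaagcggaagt
Bag3, 2 units, chr7:128523617-128523632, plus strand: tgggaccaGAAGTTTC
The Hsph1 elements lie 16 to 28 bases after and 54 to 47 bases before 1 annotated start, and the Bag3 element 43 to 50 bases after its start. The Bag3 match ends at the edge of the window searched, so further units past it would not be seen. A 3-unit form was found in the promoters of 2 members, Hsph1 and Dnajb6 (3.64%), and in 0.662% of 27025 genes with a promoter. A 2-unit form was found in 13 members (23.6%) and in 17.0% of genes. Of the 6 members higher in replicate 2 with a promoter in the table, 4 held a 2-unit form. A match is a description of the letters only.

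The remaining Hsp90 co-chaperones did not differ beyond counting error. Cdc37, which brings kinases to Hsp90, had 308 and 276 CPM from 435 and 258 reads, with 1.14-fold more in replicate 1 (0.975 to 1.33). Ahsa1, which activates the Hsp90 ATPase, had 198 and 219 CPM from 280 and 205 reads, with 1.08-fold more in replicate 2 (0.9 to 1.30). Single isoforms dominated both, Cdc37-201 with 91.0% and 91.1% of reads and Ahsa1-201 with 95.0% and 93.2%. The intervals of both genes include equal levels, and reach 1.33-fold for Cdc37 and 1.30-fold for Ahsa1.

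Among class A J proteins, Dnaja2, a cytosolic partner of Hsp70, had 299 and 292 CPM from 423 and 273 reads, and Dnaja4 had 42.5 and 38.5 CPM. Of the other class B J proteins, Dnajb2 had 180.5 and 227 CPM, Dnajb6 188 and 179.9, Dnajb4 46.7 and 46.0, and Dnajb12, which is anchored in the ER membrane, 55.2 and 52.5. None of these passed the test. Dnaja1 was 914 ± 244 CPM (SD, n = 2) and Dnaja2 296 ± 5, so these 2 genes differed from each other by more than the libraries did. Dnaja4 was the lowest of class A. Dnajb3, Dnajb5 and Dnajb13 had 7, 6 and 2 reads in all.

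The 9 tested J proteins listed for the ER, without Dnajb12 and its relative Dnajb14, ranged from Dnajc3 (171 and 194 CPM), an inhibitor of the kinase Perk, to Dnajc18 (14.9 and 6.42 CPM). Dnajb11, a partner of the ER Hsp70 Hspa5, had 161 and 136 CPM from 228 and 127 reads. Dnajc14 had 155 and 122 CPM, Dnajc10, an ER reductase, 70.8 and 94.2, and Dnajc1 68.7 and 50.3. Dnajb9, an inhibitor of the sensor Ire1, had 41.8 and 40.7 CPM. None of the 9 passed the test, and their median log2 ratio was -0.06. The 3-unit heat shock element was in none of the 8 ER members with a promoter, and the ER stress element, searched by its consensus (ERSE), was in Dnajc3 alone of them and in 0.137% of genes. Hsp90b1 also held it.

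The 6 J proteins grouped as mitochondrial were led by Dnajc15, a relative of the import motor's J protein, with 217 and 188 CPM from 307 and 176 reads. Dnajc11, which works with the inner membrane organising complex, had 205 and 165 CPM. Dnajc19, the J protein of the import motor, had 48.1 and 76.0 CPM from 68 and 71 reads, with 1.54-fold more in replicate 2 (1.09 to 2.19, exact binomial test, adjusted p = 0.091). With annotated transcripts only, Dnajc19 passed the exact test (log2 0.76, adjusted p = 0.042), against 11.2% of genes called. Dnajc28 was at 12.7 and 3.21 CPM, from 18 and 3 reads. None of the 6 passed the main test, and their median log2 ratio was -0.29.

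In the nucleus and at the ribosome, Dnajc8, a spliceosome-associated protein, had 95.5 and 108 CPM, Dnajc9, a histone co-chaperone, 70.1 and 45.0, and Dnajc21, of ribosome assembly, 48.1 and 68.5. Dnajc9 had 1.59-fold more reads in replicate 1 (1.10 to 2.34, exact binomial test, adjusted p = 0.086). Dnajc5, the cysteine string protein of secretory vesicles, had 80.7 and 91.0 CPM, whereas Dnajc13, Dnajc6 and Dnajc27 had 12, 8 and 6 reads in all. Dnajc7, which binds both Hsp70 and Hsp90, had 191 and 241 CPM from 270 and 225 reads. Dnajc12, a partner of aromatic amino acid hydroxylases, had 13 and 6 reads. None of these passed the test.

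Small heat shock proteins were mainly Hspb8 and Hspb1. Hspb1, the mouse Hsp25, had 156 and 185 CPM from 221 and 173 reads, with 1.16-fold more in replicate 2 (0.944 to 1.42). Hspb6, known from muscle, had 12.7 and 4.28 CPM from 18 and 4 reads and was not called (exact binomial test, adjusted p = 0.22). Hspb2 (3 and 1 reads) and Hspb7 (1 and 0) had too few reads to test. Of the skeletal muscle markers, 20 of 20 were seen in replicate 1 and 8 of 20 in replicate 2, and 11 of 13 tested were higher in the former. Acta1, the skeletal muscle actin, had 333 and 0 reads. The part of muscle RNA in the Hspb6 values was not tested. Hspb11, a protein of intraflagellar transport, had 25 and 8 reads. Cryab, a close relative outside the name rule, had 30 and 11 reads.

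Bag1 was the most abundant Bag gene, with 403 and 428 CPM from 569 and 400 reads and 94.7% and 94.0% of them on Bag1-202. Bag6, which sorts tail-anchored proteins, had 88.5 and 123 CPM, Bag5 88.5 and 81.4, Bag2 43.2 and 40.7 and Bag4 23.4 and 30.0. Bag6 had 1.36-fold more in replicate 2 (1.05 to 1.77, exact binomial test, adjusted p = 0.12). Of the Bag genes Bag3 alone was called.

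The heat shock factors were rare. Hsf1 was at 12 CPM (17 reads) and 25.7 CPM (24 reads), 2.09-fold more in replicate 2 (1.08 to 4.14, exact binomial test, adjusted p = 0.16). Hsf2 had 15 and 10 reads (10.6 and 10.7 CPM). Hsbp1, which binds Hsf1, had 144 and 158 CPM, and Hsf4 had 3 and 5 reads. These levels are of RNA, and the activity of Hsf1 is set mainly on the protein.

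Isoforms were compared where a gene had at least 50 reads in each library. Of 31 such members, 10 had a further isoform of at least 10% in both libraries. In 6 of these 10, Hsp90aa1, Hsp90ab1, Hsp90b1, Bag3, Dnajc3 and Stip1, it was of the partial class. The other 4 were J proteins with a pair of annotated or genomic forms. Over the 44 members measured, the main isoform took a median of 81.1% and 76.3% of reads, against 74.6% and 70.7% over all genes.

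Dnajb6, a suppressor of protein aggregation, was split between a short and a long form. Dnajb6-203, with 242 codons, had 141 and 90 reads (53.0% and 53.6%), and Dnajb6-201, with 365 codons, had 93 and 56 reads (35.0% and 33.3%). The split was nearly equal in the libraries. Dnaja3-202 (453 codons) had 77.1% and 77.5% of Dnaja3 reads and Dnaja3-201 (480 codons) 17.6% and 13.8%. Dnajb2, known from neurons, had 32.5% and 32.1% of reads on Dnajb2-207 (277 codons) and 30.2% and 17.9% on Dnajb2-210 (324 codons). None of these 3 genes passed Fisher's exact test, each with an adjusted p of 1.

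Dnajc5 held annotated and genomic forms. Dnajc5-201, which codes for 198 codons, had 46 and 24 reads (40.4% and 28.2%). Dnajc5-204, annotated as a target of nonsense-mediated decay, had 24 and 13 reads (21.1% and 15.3%). Unannotated single-exon models, pooled and led by a genomic model, had 25 and 23 reads (21.9% and 27.1%). Stip1-201 had 80.0% and 71.6% of Stip1 reads, and its unannotated single-exon models, pooled, 11.8% and 18.3%. Bag6 was spread over 93 isoforms, 55 of them with 1 read over both libraries and 24 present in both. The most abundant Bag6 isoform, a partial 12-exon model, took 23.2% and 23.5%.

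**Figure D5:**
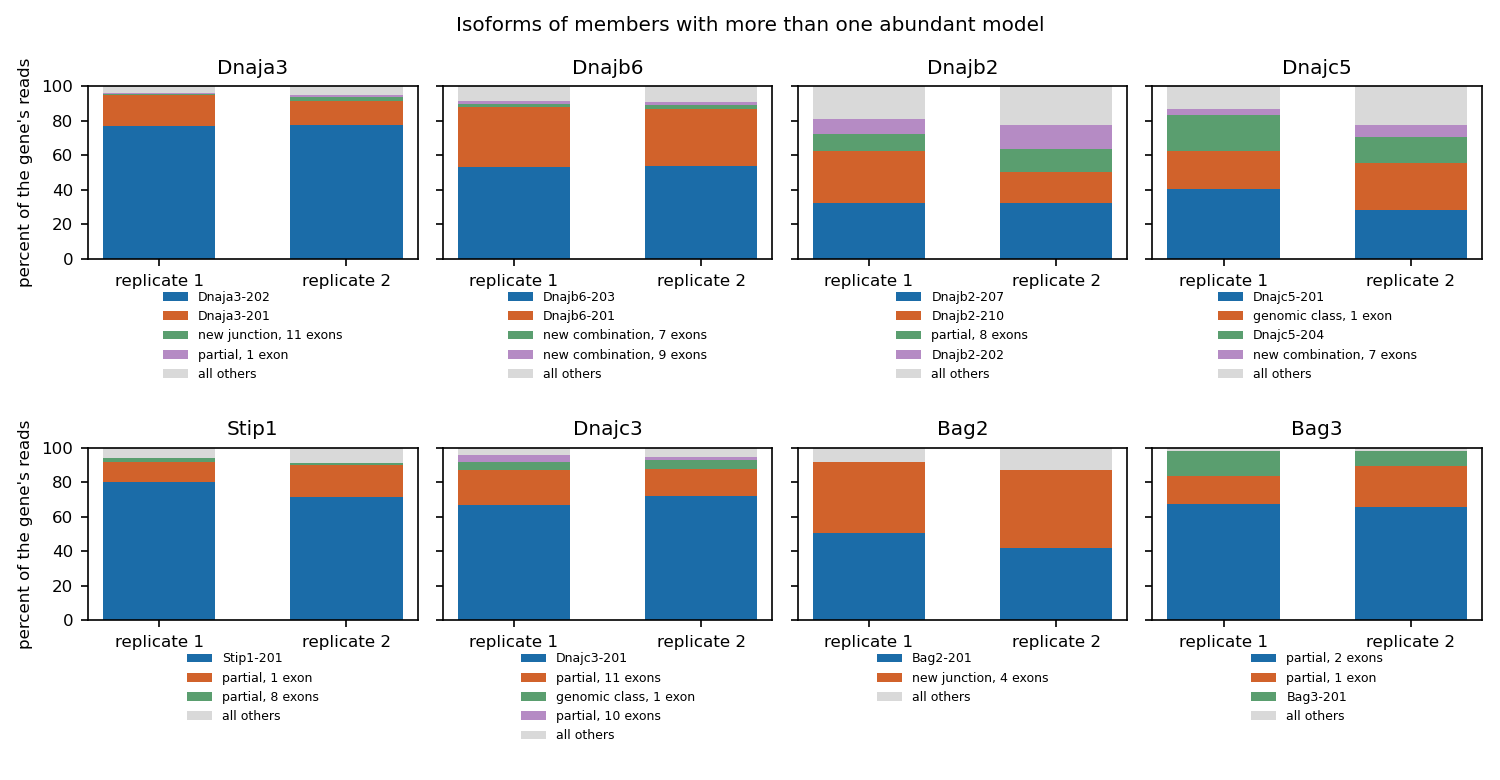
Isoform shares, in percent of each gene's reads, for 8 members in replicates 1 and 2. Each bar stacks up to 4 models named in the legend, with all others in grey, and unannotated single-exon models of a gene are pooled. Dnajb6 holds the same 2 annotated forms in like shares, and Bag2 holds a model with a new junction at 41.0% and 44.7%.

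New spliced models that reached 5 reads in either library numbered 25, in 16 members, and 24 of them were present in both libraries (96.0%, against 92.1% of such models over all genes). The most abundant belonged to Bag2. It had 25 and 17 reads, 41.0% and 44.7% of the gene, beside 31 and 16 reads of Bag2-201. It differs from Bag2-201 by a 44-base gap at chr1:33746146-33746189, inside the last exon and past the coding end, and the gap begins with GT and ends with AG on the transcript strand. The reads were aligned to the mm10 reference and the mice are F1 hybrids, so an intron and an allele that lacks these bases cannot be told apart here.

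The other new models were rarer. A Cdc37 model with a new combination of known splice sites had 15 and 10 reads (3.45% and 3.88%), a Dnajc7 model of 13 exons had 5 and 17 reads, and a Dnaja3 model with a new junction had 7 and 9 reads. A Dnajc15 model that skips a 77-base exon had 7 and 6 reads. A model counted under Dnajc4 also had 7 and 6 reads. It lies at chr19:6993019-6996037, outside annotated Dnajc4 (chr19:6987911-6992572), and overlaps the span of the neighbour Nudt22. In Hsf2, a 13-exon model with an added annotated exon of 54 bases had 6 and 5 reads, beside 6 and 4 of Hsf2-201, so both forms were present in like numbers. A Bag6 model of 25 exons had 7 and 4 reads, another Dnajc7 model that skips an 89-base exon had 5 and 5, and an Hsp90ab1 model that is 2 bases longer had 5 and 5.

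Partner genes outside the name rule were taken from lists of the pathway. Of 18 tested Hsp70 and exchange factor genes, 5 were higher in replicate 2 and 1 in replicate 1, with a median log2 ratio of 0.12 beside 0.00 over all genes. Of all genes tested, 5.74% and 5.88% were called in these directions, which is the background for each list here. Calls depend on depth, and among genes with at least 100 reads these shares were 10.3% and 11.9%. The inducible Hsp70 genes led. Hspa1b had 490 and 1583 reads (347 and 1695 CPM), 4.78-fold higher in replicate 2 (4.32 to 5.30), and Hspa1a had 203 and 597 reads, 4.35-fold higher (3.70 to 5.13). The constitutive Hspa8, the most abundant with 4069 ± 481 CPM (SD, n = 2), was 1.16-fold higher, Hyou1 1.53-fold and Hspa4 1.25-fold, while the mitochondrial Hspa9 was 1.16-fold higher in replicate 1 and the ER form Hspa5 (1377 ± 78.7 CPM, SD, n = 2) was not called. Hspa1a and Hspa1b are near-identical copies, so how reads were split between them is uncertain.

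Of 23 further Hsp90 co-chaperones, Fkbp5, an immunophilin of steroid receptor complexes, was 2.35-fold higher in replicate 2 (121 and 192 reads) and Unc45a 1.32-fold. Rpap3 and the ubiquitin ligase Stub1 were higher in replicate 1, by 1.81-fold and 1.23-fold. Fkbp4 and Nudc, the most abundant at 874 ± 41.2 and 348 ± 31.8 CPM (SD, n = 2), were not called. Of 16 ER folding and stress genes, Atf4 was 1.74-fold higher in replicate 2, and Pdia3 and Pdia6 were 1.20-fold and 1.28-fold higher in replicate 1. Canx, the most abundant of that list after Pdia3, had 442 ± 37.5 CPM (SD, n = 2) and was not called. Of 3 tested J domain genes with other names, Sec63 and Gak were the most abundant at 124 ± 20.6 and 14.4 ± 2.35 CPM (SD, n = 2), and neither was called. Of 6 tested genes that respond within minutes to handling, Jun was 1.26-fold higher in replicate 2 and Nr4a1 1.39-fold higher in replicate 1. Calls on these lists went in both directions, beside 5.74% of all genes tested called higher in replicate 2 and 5.88% in replicate 1. Among genes with at least 100 reads these were 10.3% and 11.9%.

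Some members have near-identical pseudogenes, so their counts could be split. Hsp90aa1 and the pseudogene Gm12346 were 99.5% identical over 2255 bases, and Hspb1 and Hsp25-ps1 99.4% over 630 bases. The 6 pseudogenes of Hsp90ab1 had no reads.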

How the data were processed

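The authors deposited, for each library, a table of transcript models with counts of long reads per model on mm10 with GENCODE M21, per the file headers and the notes that accompany the tables. Which aligner, version and filters were used is not given in the sources used here. Counts carry no normalization. Counts were summed over all models of an annotated gene, without ERCC and new-gene models (3.22% and 5.85% of other reads).

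Each ratio divides replicate 2 by replicate 1, scaled by TMM in edgeR 4.0.16 (factors 0.989 and 1.01, R 4.3.3), with 0.5 reads added for log2. Genes with at least 10 reads were compared by a two-sided exact binomial test with Benjamini-Hochberg adjustment at 0.05, and by edgeR's exact test with the dispersion of an intercept-only fit. edgeR's quasi-likelihood test was not used, since comparing 2 single libraries leaves no residual degrees of freedom. Main isoform shares were compared by Fisher's exact test where both libraries had 20 reads or more. Isoforms were matched by identifier or intron chain. Intervals are exact (95%, Clopper-Pearson) and cover counting error only. Scripts, in Python 3.11.15 with scipy 1.17.1, bedtools 2.31.1 and minimap2 2.31-r1302 for pseudogenes, were tested on simulated data.

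Alternatives were DESeq2 1.42.0 size factors, total gene reads, ERCC totals, minimums of 1 and 50 reads, annotated transcripts only and pooled overlapping models. Added after seeing the data were reads overlapping the last exon, Hsp90ab1 without its 2-exon model, and, for missing last exons, models overlapping the main isoform. Members and lists were chosen with earlier results of these data known. Named were every Hsp90, co-chaperone, Hsp110 and Hsf gene, other members with at least 100 reads, members called, those without reads, isoforms of at least 10% in both libraries beside the main one, the 10 most abundant new spliced models, and, of the pathway lists, genes called and the 2 with the highest CPM. The cell type lists are given by sums, most of them with counts of calls, and the handling list by its calls. Others were chosen after their values were seen. Protein sequences were not used here. The sequence at 1 internal end of Hsp90ab1 is not reported here.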

Additional observations from a re-analysis of the deposited data

Results flagged for a closer look

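Reads lay outside the gene counts of the members, above the 3 reads that a count of 0 allows in each library. Models on the strand opposite Dnajc18 had 20 reads in replicate 1 and 10 in replicate 2, beside 21 and 6 reads of the gene itself. Those opposite Dnajb6 had 10 and 20 reads, beside 266 and 168. Those opposite Dnaja1 had 6 and 25 reads, beside 1047 and 1015, and were thus more frequent in the smaller library. Those opposite Dnajc15 had 5 and 4 reads, and those opposite Bag6 also 5 and 4. The pseudogene Gm12346 of Hsp90aa1 had 14 and 29 reads, and the pseudogene Hsp25-ps1 of Hspb1 had 40 and 24 reads. With 2 libraries, no group was large enough for a search for samples that stand apart.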

How the results depend on the processing

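The 2 libraries and their counting error limit every comparison. The counts of 7 and 1 members higher in replicates 2 and 1 were within 1.5 times under DESeq2 size factors, total gene reads, minimums of 1 and 50 reads, annotated transcripts only, pooled overlapping models and both added alternatives for this test, with ranges of 5 to 7 and of 1. They moved to 3 and 15 with ERCC totals and to 0 and 0 with edgeR's exact test, whose spread comes from the 2 libraries compared and so leaves few calls by construction. Of the members called, none reversed. The median member level went from 51.5 to 50.4 CPM with annotated transcripts only, and was 51.4 and 51.7 CPM with either library left out. The share of gene reads on members was 1.06% to 1.29%, the median main isoform share 76.3% to 81.1% and the annotated share of member reads 67.8% to 74.4% with either library left out. Members past the test of main isoform share numbered 1, then 0 without partial and genomic models and 3 by chi-square. New spliced models numbered 25, then 91 at 2 reads and 3 at 10 reads. Members with over 10% of reads without the last exon numbered 9, and 8 with only models that overlap the main isoform. No paired analysis was possible because the series has 1 group and no second group to pair with.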

Other observations

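The median log2 ratio of genes with at least 50 reads differed with transcript length, from 0.20 up to 1000 nt and -0.16 between 2000 and 3000 nt to 0.22 above 5000 nt. The members in these bins had medians of 0.45 (3 genes), 0.01 (14 genes) and -0.19 (6 genes).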
